A study of Mus musculus with 6 samples.

Results

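The Notch pathway was followed through 10 genes of the gastrocnemius (GAS) muscle of Kvβ2 knockout (KO) and wildtype (WT) mice, taken by gene symbol from a table of 37979 genes, in which each of the 10 symbols occurred once. They are the receptors *Notch1*, *Notch2*, *Notch3* and *Notch4*, the ligands *Jag1*, *Jag2* and *Dll4*, and the target genes *Hes1*, *Hey1* and *Heyl*. The study set 3 KO mice against 3 WT mice, all untreated males of 20 weeks of age, with 1 RNA library for each mouse. WT and KO mice came from crosses of parents that carried 1 null allele of the gene for Kvβ2, *Kcnab2*, so the KO mice lacked it in every tissue and not in muscle alone. The libraries of both genotypes carry the replicate numbers 1, 7 and 8, and values that are listed library by library below stand in this order. The question for these genes was whether receptors, ligands and targets differed between the genotypes, and whether they did so together.

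Notch receptors are large membrane proteins that bind ligands of the Jagged and Delta-like families on a neighboring cell. Binding lets the metalloproteases ADAM10 or ADAM17 and then γ-secretase cut the receptor, and the freed intracellular part enters the nucleus, where it joins the DNA-binding protein RBPJ and the Mastermind coactivators and turns on repressor genes of the HES and HEY families. In adult skeletal muscle the pathway is known for keeping satellite cells, the muscle stem cells, quiescent, and in blood vessels it is known for arterial identity and for the coupling of endothelial and mural cells. *Notch4* and *Dll4* are best known from endothelium, and *Notch3* and *Heyl* from pericytes and vascular smooth muscle.

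Gene levels were deposited as FPKM, the number of fragments on a transcript divided by its length and by the mapped fragments of the library, without counts. The steps of the low FPKM values gave estimated depths of 14860000 to 19490000 fragments in the KO and 20040000 to 22080000 fragments in the WT libraries, so each KO library was less deep than each WT library. Each member then rested on about 47 to 363 fragments in a library. *Kcnab2* lay between 0.1 and 0.233 FPKM in WT muscle, and of the KO libraries replicate 7 alone had a level above 0, of 0.0151 FPKM. The muscle markers *Acta1* and *Ckm* were at 5030 to 13900 and at 2670 to 7970 FPKM over the 6 libraries. A listed FPKM of 0 need not be a measured absence, since every library lists 9 of the 13 mitochondrial genes for proteins at 0, but no member was listed at 0. Genotypes were compared by limma, after log2(FPKM + 0.1), in the 12334 genes whose mean reached 0.5 FPKM, a filter that the 10 members all passed, and p-values were adjusted by the Benjamini-Hochberg method over these genes. Such p-values measure the spread between these mice. Fold changes are on this log2 scale, which understates the change of genes at low FPKM, and errors are standard errors (SE) of the fit. The exact permutation test of 3 against 3 libraries cannot give a p under 0.1.

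The promoters of 7 members were found in the RefSeq table of GRCm38.p6, those of the 4 receptors and the 3 ligands. The 250 bases before the start of 5 of them are shown, read 5′ to 3′ on the strand of the gene. The first 4 belong to the members whose KO libraries all lay above their WT libraries, and *Jag1* is the member whose genotypes differed least. Capitals mark the GC box GGGCGG, the motif of SP and KLF factors, on either strand.
Notch1 (chr2:26503823-26504072, minus strand): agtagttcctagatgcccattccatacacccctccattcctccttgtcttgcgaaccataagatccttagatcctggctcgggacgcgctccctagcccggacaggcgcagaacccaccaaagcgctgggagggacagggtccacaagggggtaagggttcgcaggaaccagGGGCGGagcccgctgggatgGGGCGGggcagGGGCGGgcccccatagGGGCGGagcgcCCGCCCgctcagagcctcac
Notch3 (chr17:32166891-32167140, minus strand): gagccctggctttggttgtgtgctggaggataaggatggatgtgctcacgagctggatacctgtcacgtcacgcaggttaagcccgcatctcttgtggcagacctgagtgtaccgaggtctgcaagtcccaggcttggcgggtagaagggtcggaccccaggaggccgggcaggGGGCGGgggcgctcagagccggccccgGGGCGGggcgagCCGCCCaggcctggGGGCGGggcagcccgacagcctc
Notch4 (chr17:34564045-34564294, plus strand): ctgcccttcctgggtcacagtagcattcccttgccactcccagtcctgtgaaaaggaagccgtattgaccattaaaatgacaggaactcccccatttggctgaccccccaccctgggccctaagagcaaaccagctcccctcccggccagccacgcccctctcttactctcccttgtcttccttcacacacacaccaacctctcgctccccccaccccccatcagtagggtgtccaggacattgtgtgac
Jag2 (chr12:112929496-112929745, minus strand): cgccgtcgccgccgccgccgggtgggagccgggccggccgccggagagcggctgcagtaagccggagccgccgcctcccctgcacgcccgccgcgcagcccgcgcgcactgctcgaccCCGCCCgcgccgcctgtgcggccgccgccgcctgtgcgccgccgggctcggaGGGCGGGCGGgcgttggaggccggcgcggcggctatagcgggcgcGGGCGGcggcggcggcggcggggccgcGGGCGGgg
Jag1 (chr2:137116521-137116770, minus strand): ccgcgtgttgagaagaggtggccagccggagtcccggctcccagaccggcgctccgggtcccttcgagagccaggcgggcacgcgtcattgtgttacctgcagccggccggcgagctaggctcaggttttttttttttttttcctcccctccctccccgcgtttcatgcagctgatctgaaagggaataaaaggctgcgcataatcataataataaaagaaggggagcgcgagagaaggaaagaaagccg
Each window precedes the RefSeq start, which is not always the end of the gene span that GENCODE gives. The windows of *Notch1* and *Jag2* lie wholly and those of *Notch4* and *Jag1* partly within that span, while that of *Notch3* lies before it. Of the 7 windows, that of *Notch3* alone precedes a stretch that was not found whole in a GENCODE transcript of the gene. GC boxes were found 5 times before *Notch1*, 4 times before *Notch3* and 5 times before *Jag2*, some of them overlapping, and neither *Notch4* nor *Jag1* held 1. Of all 32851 promoter windows of this length, 32.7% held a GC box. *Notch4* and *Jag2*, the 2 members with the largest difference, had unlike promoters, with 4 CpG and 58.4% GC before *Notch4* and 54 CpG and 87.2% GC before *Jag2*, beside a median of 6 CpG and 52.4% GC over all windows. The core motif of RBPJ, TGGGAA on either strand, was in none of the 7 windows and in 21.6% of all, and the E-box CACGTG was in none of the 7 and in 6.0% of all. These matches are a description of the letters and say nothing of binding.

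Among the receptors, 3 of 4 were higher in every KO library than in every WT library, as were 18.3% of all tested genes. *Notch4* (ENSMUSG00000015468, chromosome 17, 34564268 to 34588503 of GRCm38) had levels of 0.631, 0.760 and 0.447 FPKM in the WT libraries against 1.14, 1.50 and 1.22 FPKM in the KO libraries. The KO libraries lay close together and well clear of the WT libraries, of which replicate 8 was the lowest. The means were 0.613 ± 0.157 FPKM in WT and 1.29 ± 0.19 FPKM in KO muscle (SD, n = 3 each). The log2 fold change was 0.98 (SE 0.27, adjusted p = 0.0946), with a 95% confidence interval of 0.36 to 1.6. *Notch3* (ENSMUSG00000038146, chromosome 17, 32120820 to 32166852) had levels of 0.866, 1.03 and 0.918 FPKM in the WT libraries against 1.34, 2.36 and 1.27 FPKM in the KO libraries. KO replicate 7 stood apart from the other KO libraries and decided much of the difference, since the log2 fold change of 0.71 (SE 0.27, adjusted p = 0.158) was 0.44 without it. *Notch1* (ENSMUSG00000026923, chromosome 2, 26457903 to 26516663), the receptor best known from satellite cells, had levels of 0.743, 0.539 and 0.740 FPKM in the WT libraries against 0.916, 1.64 and 0.990 FPKM in the KO libraries. KO replicate 7 was again the highest, and the log2 fold change of 0.70 (SE 0.29, adjusted p = 0.187) was 0.45 without it. The mean levels of *Notch4*, *Notch3* and *Notch1* in KO muscle were 2.10, 1.76 and 1.75 times those in WT muscle. For each of these 3 receptors the exact permutation test gave p = 0.1, two-sided, the smallest that the design allows.

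*Notch2* (ENSMUSG00000027878, chromosome 3, 98013527 to 98150361), which shares the domain plan of *Notch1*, was the most abundant receptor in WT muscle. Its levels were 1.26, 1.48 and 1.19 FPKM in the WT libraries against 1.50, 1.8 and 1.31 FPKM in the KO libraries. The genotypes overlapped, and the log2 fold change of 0.21 (SE 0.20, adjusted p = 0.509) had a 95% confidence interval of -0.24 to 0.67 and was 0.10 without KO replicate 7. In WT muscle the order of the mean levels was *Notch2* (1.31 FPKM), *Notch3* (0.938 FPKM), *Notch1* (0.674 FPKM) and *Notch4* (0.613 FPKM). The WT libraries of *Notch2* did not overlap those of any other receptor and those of *Notch3* did not overlap those of *Notch1* or *Notch4*, while *Notch1* and *Notch4* overlapped. In KO muscle the means lay closer together, from 1.18 FPKM for *Notch1* to 1.65 FPKM for *Notch3*, and no receptor was clear of the rest.

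The summed FPKM of the 4 receptors was 3.5, 3.81 and 3.30 in the WT libraries and 4.90, 7.30 and 4.79 in the KO libraries. *Notch2* made up 35.9% to 38.9% of this sum in the WT and 24.7% to 30.7% in the KO libraries. The share of *Notch4* was 13.6% to 19.9% in the WT and 20.6% to 25.5% in the KO libraries. In the deposited values, the receptor pool of each KO library was larger and held a smaller share of *Notch2* than that of each WT library. These sums and shares were not tested and not corrected for GC content, which is taken up below. The GC content was 54.5% for *Notch2*, 56.4% for *Notch1*, 59.7% for *Notch3* and 61.5% for *Notch4*.

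**Figure D1:**
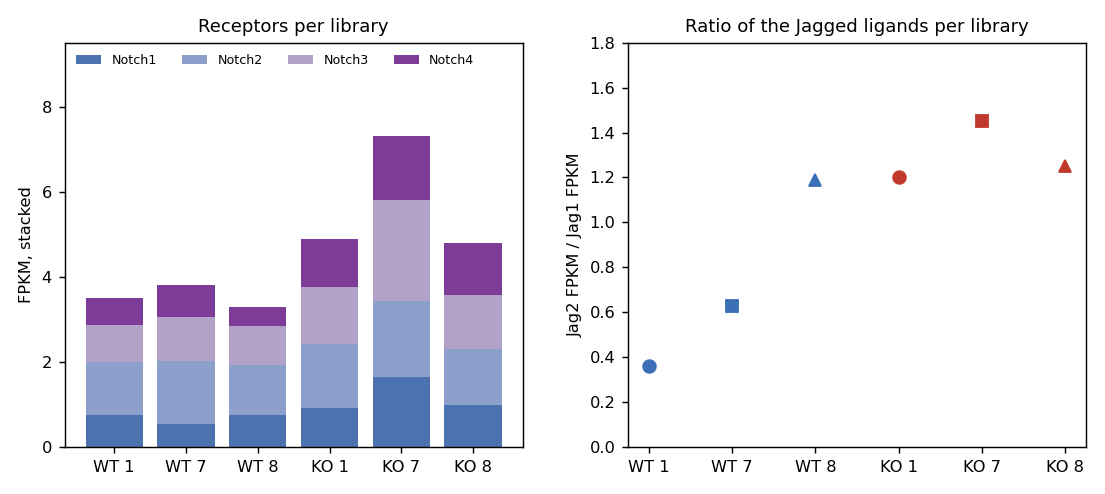
Left, stacked FPKM of the 4 Notch receptors in each library. Right, FPKM of *Jag2* divided by FPKM of *Jag1* in each library, with WT in blue and KO in red. The summed receptor level was 3.30 to 3.81 FPKM in WT and 4.79 to 7.30 FPKM in KO libraries, and the *Jag2* to *Jag1* ratio of WT replicate 8 (1.19) nearly equaled that of KO replicate 1 (1.20). Neither quantity was corrected for GC content.

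The 3 ligands did not behave alike. *Jag2* (ENSMUSG00000002799, chromosome 12, 112907819 to 112929776) had levels of 0.918, 1.27 and 1.94 FPKM in the WT libraries against 2.23, 3.52 and 2.56 FPKM in the KO libraries. The genotypes did not overlap, with WT replicate 8 nearest to the KO libraries, and the log2 fold change was 0.99 (SE 0.29, adjusted p = 0.102, 95% confidence interval 0.32 to 1.67). The means were 1.38 ± 0.518 and 2.77 ± 0.670 FPKM (SD, n = 3 each), and the exact permutation test gave p = 0.1. *Jag1* (ENSMUSG00000027276, chromosome 2, 137081456 to 137116644), the other Jagged ligand, had levels of 2.56, 2.03 and 1.63 FPKM in the WT libraries against 1.86, 2.42 and 2.05 FPKM in the KO libraries. Its genotypes were intermixed, with a log2 fold change of 0.04 (SE 0.20, adjusted p = 0.921) and a 95% confidence interval of -0.44 to 0.51. The ratio of *Jag2* to *Jag1* was 0.359, 0.628 and 1.19 in the WT libraries and 1.20, 1.45 and 1.25 in the KO libraries. *Jag1* was therefore the more abundant Jagged ligand in WT replicates 1 and 7, and *Jag2* in the other 4 libraries. This ratio was not corrected for GC content, which was 61.0% for *Jag2* and 48.8% for *Jag1*.

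*Dll4* (ENSMUSG00000027314, chromosome 2, 119325784 to 119335962), the Delta-like ligand of vessels, had levels of 1.45, 1.86 and 1.11 FPKM in the WT libraries against 2.98, 1.8 and 1.54 FPKM in the KO libraries. KO replicate 1 was the highest and the other KO libraries lay within the WT range. The log2 fold change of 0.46 (SE 0.29, adjusted p = 0.343) was 0.19 without KO replicate 1, 0.28 without WT replicate 8 and 0.65 without KO replicate 8, and it was 0.06 with limma's array weights, which let libraries count unequally.

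The 3 target genes overlapped between the genotypes. *Hes1* (ENSMUSG00000022528, chromosome 16, 30064384 to 30067796), a bHLH repressor and the most abundant member, had levels of 5.89, 3.88 and 3.12 FPKM in the WT libraries against 4.07, 6.43 and 6.52 FPKM in the KO libraries. WT replicate 1 lay below KO replicates 7 and 8 but above KO replicate 1, which lay above WT replicates 7 and 8. The log2 fold change of *Hes1* was 0.41 (SE 0.27, adjusted p = 0.368, 95% confidence interval -0.23 to 1.04). It was 0.66 without WT replicate 1, 0.63 without KO replicate 1 and 0.21 without WT replicate 8. *Hey1* (ENSMUSG00000040289, chromosome 3, 8663359 to 8667256), a HEY repressor of vessels and satellite cells, had levels of 1.01, 1.26 and 1.52 FPKM in the WT libraries against 1.70, 1.06 and 1.48 FPKM in the KO libraries, with a log2 fold change of 0.14 (SE 0.24, adjusted p = 0.735, 95% confidence interval -0.43 to 0.72). That of *Hey1* was 0.01 without KO replicate 1 or without WT replicate 1, and 0.33 without KO replicate 7. *Heyl* (ENSMUSG00000032744, chromosome 4, 123233556 to 123249875) had levels of 1.51, 1.42 and 1.20 FPKM in the WT libraries against 1.42, 2.07 and 1.23 FPKM in the KO libraries. Only KO replicate 7 lay outside the WT range, and the log2 fold change of 0.15 (SE 0.23, adjusted p = 0.696, 95% confidence interval -0.39 to 0.70) was -0.05 without that library. Whether the targets differed from the receptors in their fold change was not tested. The FPKM of *Hes1* divided by the summed FPKM of the receptors was 1.69, 1.02 and 0.947 in the WT libraries and 0.831, 0.881 and 1.36 in the KO libraries, without a separation of the genotypes.

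**Figure D2:**
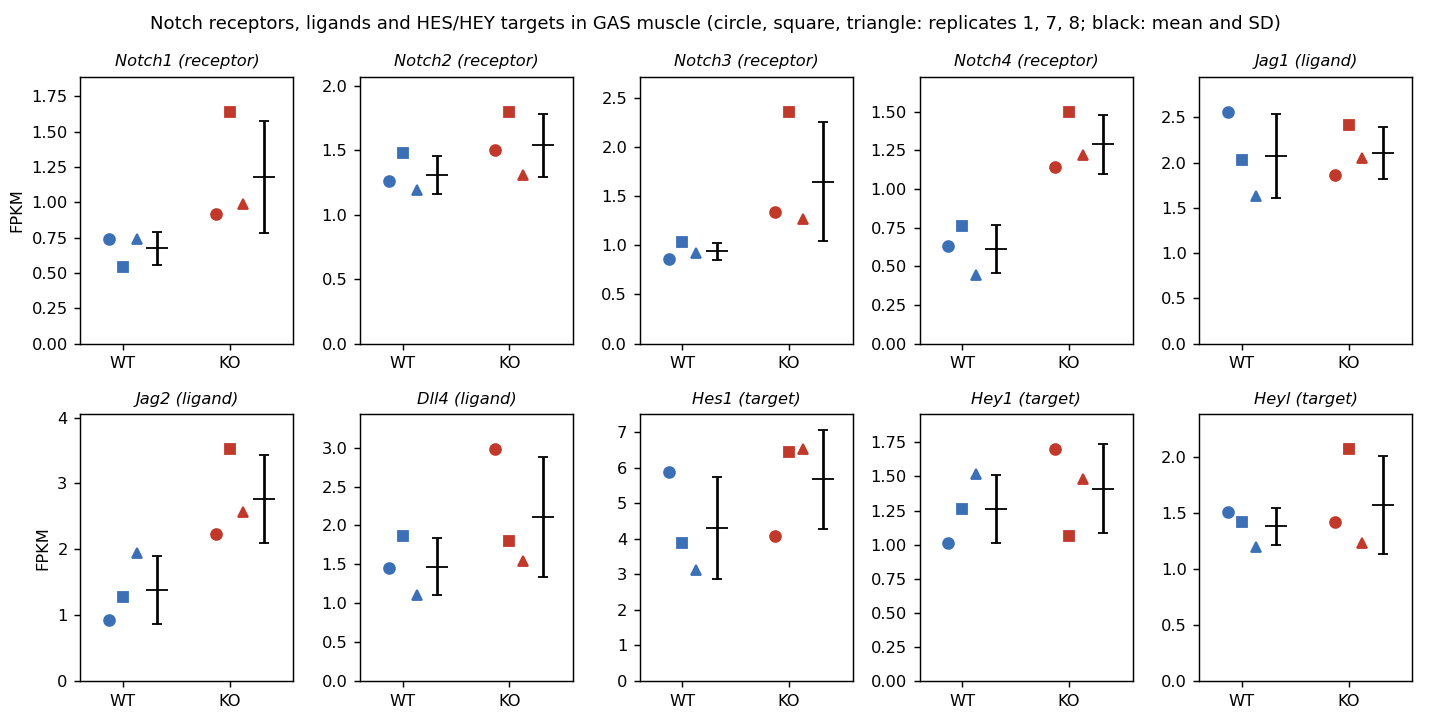
FPKM of each of the 10 members by genotype, with WT in blue and KO in red, a marker for each library (circle, square and triangle for replicates 1, 7 and 8) and the mean with its SD (n = 3) in black. Every KO library lies above every WT library for *Notch1*, *Notch3*, *Notch4* and *Jag2*, and KO replicate 7 is the highest of the 6 libraries for 6 of the 10 members.

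The log2 fold change was above 0 for 10 of the 10 members and for 6294 of the 12334 tested genes. Of the members, 0 passed an adjusted p of 0.05, a threshold that 0.324% of all tested genes passed. At an unadjusted p under 0.05, 4 members were higher (*Notch1*, *Notch3*, *Notch4* and *Jag2*) and 0 were lower, while 15.3% of all tested genes were higher and 10.9% lower at this threshold. With array weights, 4 members passed an adjusted p of 0.05 (*Notch1*, *Notch4*, *Jag2* and *Hes1*), but so did 3147 of all tested genes. *Notch1*, *Notch3*, *Notch4* and *Jag2* did not overlap between the genotypes with the KO higher, beside 18.3% of all tested genes, and 16.2% of all tested genes did not overlap with the KO lower. The median log2 fold change was 0.43 over the members, 0.70 over the receptors, 0.46 over the ligands and 0.15 over the targets, and 0.01 over all tested genes. That of the members was 0.28 without WT replicate 8.

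GC content moved with these differences. The log2 fold change rose with the GC content of the annotated transcripts over the tested genes (Spearman's rho = 0.70 across 11985 genes, which are not independent), and the members are rich in GC, with a median of 56.2% beside 50.1% for all tested genes. Of the members, 8 had a GC content of 54% or more, and of the 3364 tested genes in that range, 90.9% had a log2 fold change above 0. The members were ordered in the same way, from *Jag1* with 48.8% GC through *Hey1* with 53.2% to *Jag2* with 61.0% and *Notch4* with 61.5%. Across the 10 members Pearson's r between GC content and log2 fold change was 0.91 and Spearman's rho was 0.94, over genes measured in the same 6 libraries. The slope of a library's log2 level on GC content, relative to the mean of the libraries, was 0.176, 0.368 and 0.218 per 10% GC in the KO libraries. It was -0.403, -0.230 and -0.128 in the WT libraries, so the genotypes did not overlap in this slope, and KO replicate 7, the highest library for 6 members, had the steepest rise.

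**Figure D3:**
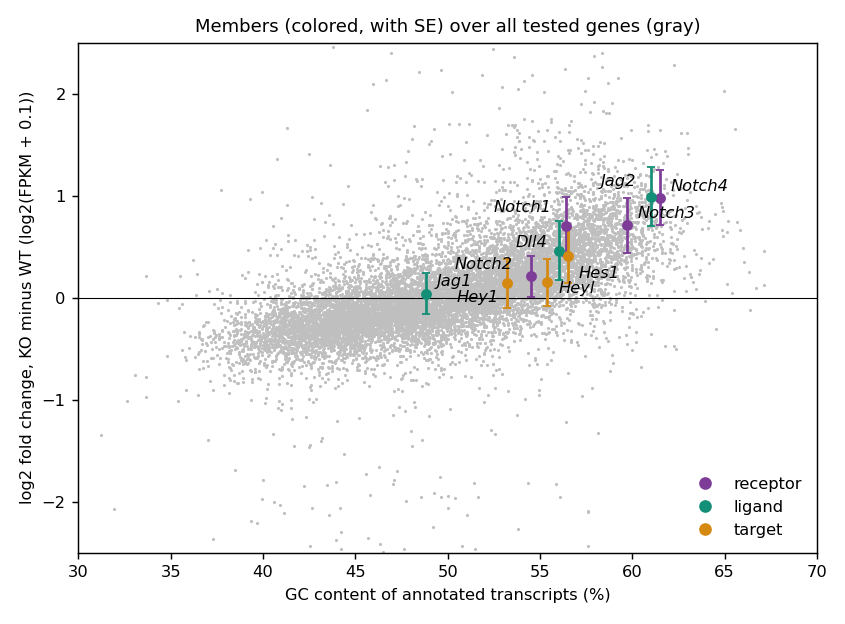
Log2 fold change of KO against WT on the log2(FPKM + 0.1) scale over the GC content of the annotated transcripts, with all tested genes of known GC content in gray and the 10 members in color with their SE, apart from 95 genes beyond the axes. The members lie along the trend of all genes, from *Jag1* at 48.8% GC and 0.04 to *Notch4* at 61.5% GC and 0.98.

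After each library was corrected for its trend on GC content, the log2 fold changes were 0.28 for *Notch1*, -0.08 for *Notch2*, 0.10 for *Notch3* and 0.30 for *Notch4*. They were 0.09 for *Jag1*, 0.33 for *Jag2* and 0.07 for *Dll4*, and they were -0.01 for *Hes1*, -0.05 for *Hey1* and -0.19 for *Heyl*. The SE were 0.19 to 0.31, and the lowest adjusted p was 0.618, that of *Jag2*. The median over the members was 0.08, and 6 of 10 were higher in the KO mice, as were 5913 of the 11985 genes so treated. With the correction 0 of the 10 members were free of overlap with the KO higher, beside 8.14% of all genes so treated. The GC slopes did not overlap between the genotypes, so the correction takes out any difference by genotype that follows GC content, whatever its source.

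**Figure D4:**
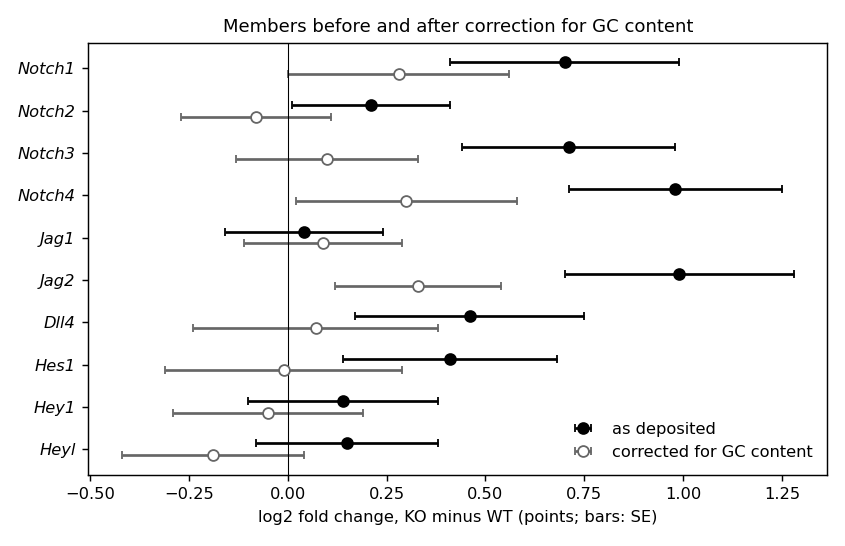
Log2 fold change of KO against WT (points) with SE (bars) for the 10 members, before (filled) and after (open) each library was corrected for its trend on GC content. *Notch4* moves from 0.98 to 0.30 and *Jag2* from 0.99 to 0.33, while *Jag1* stays near 0.

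Levels in whole muscle also depend on which cells it holds, and in these libraries fewer cells of a type and less RNA per cell cannot be told apart. The 16 endothelial markers summed to 101 to 131 FPKM in the WT and 125 to 147 FPKM in the KO libraries, with 12 of 16 higher in the KO mice, 0 past an adjusted p of 0.05 and a mean log2 difference of 0.27. In the deposited values, the mean log2 level of the list was higher in every KO library than in every WT library. *Pecam1*, a defining endothelial marker, had levels of 15.0, 14.3 and 13.2 FPKM in the WT libraries against 15.6, 16.4 and 13.5 FPKM in the KO libraries, and *Cdh5* was at 10.5 to 11 FPKM in the WT and 10.7 to 14.9 FPKM in the KO libraries. Both overlapped between the genotypes, whereas 5 markers of the list, named after their values were seen, were higher in every KO library, with log2 fold changes of 0.79 for *Tie1*, 0.72 for *Eng*, 0.64 for *Robo4*, 0.59 for *Vwf* and 0.41 for *Esam*. Of all tested genes, 18.3% were higher in every KO library. Of the 5 markers, *Tie1* was free of overlap also after correction for GC content, with 0.28, beside 8.14% of all genes so treated. *Kdr* had the lowest value of the list, at -0.44 (adjusted p = 0.185), with an overlap. The 10 markers of pericytes and smooth muscle other than *Notch3* and *Heyl* summed to 130 to 151 FPKM in the WT and 129 to 145 FPKM in the KO libraries, with a mean log2 difference of 0.31 over the 9 that were tested. *Rgs5* and *Abcc9* were the largest parts of each sum, with *Abcc9* at 42.9 to 54.6 FPKM in the WT and 35.8 to 51.6 FPKM in the KO libraries. *Pdgfrb* was higher in every KO library (3.07 to 3.97 FPKM in WT, 4.14 to 5.86 FPKM in KO) and *Rgs5* lower in every KO library (44.9 to 70.4 FPKM in WT, 39.0 to 44.8 FPKM in KO), with log2 fold changes of 0.37 and -0.33. With *Notch3* and *Heyl* included, 9 of 11 tested genes of the list had a higher and 2 a lower level in KO muscle, and 0 passed an adjusted p of 0.05. Of these 11, 6 were higher in every KO library, the member *Notch3* among them, and 1 was lower. Over all tested genes the shares were 18.3% and 16.2%. Beside *Pdgfrb* and *Notch3*, those higher in every KO library were *Tagln* (0.72), *Acta2* (0.67), *Myh11* (0.57) and *Cspg4* (0.78), again named after their values were seen. After correction for GC content *Acta2* (0.68) and *Tagln* (0.64), both genes of smooth muscle contraction, were still higher in every KO library, while *Pdgfrb* (0.05) and *Rgs5* (-0.01) overlapped. The satellite cell list summed to 20.6 to 28.3 FPKM in the WT and 34.1 to 37.4 FPKM in the KO libraries. *Itga7* was the largest part of each sum, at 8.47 to 13.7 FPKM in the WT and 16.2 to 20.1 FPKM in the KO libraries. The defining gene *Pax7* was under the filter, at 0.340 to 0.529 FPKM in the WT and 0.362 to 0.446 FPKM in the KO libraries, as were *Myf5*, *Calcr* and *Megf10*. The myofiber list ranged from 53400 to 76900 FPKM in the WT and from 72600 to 84000 FPKM in the KO libraries. The ranges of the arterial (13.3 to 18.8 FPKM in WT, 14.4 to 19.0 FPKM in KO), fibroadipogenic (801 to 894 and 858 to 1120 FPKM), macrophage (22.6 to 48.9 and 33.7 to 76.9 FPKM) and Schwann cell lists (13.7 to 64.8 and 15.3 to 91.0 FPKM) overlapped between the genotypes. Of the tested markers, 5 of 6 were higher in the KO mice in the satellite cell list, 10 of 12 in the myofiber list, 5 of 7 in the arterial list, 5 of 10 in the fibroadipogenic list, 8 of 8 in the macrophage list and 4 of 6 in the Schwann cell list, with 0 past an adjusted p of 0.05 in each. Over all 12334 tested genes, 6294 were higher in the KO mice. The median log2 fold change was 0.20 before and 0.09 after correction for GC content in the endothelial list. In the pericyte and smooth muscle list, with *Notch3* and *Heyl*, it was 0.37 and 0.05. It was 0.36 and 0.38 in the satellite cell, 0.47 and 0.20 in the myofiber and 0.16 and 0.03 in the arterial list. The fibroadipogenic list had 0.11 and 0.14, the macrophage list 0.64 and 0.46 and the Schwann cell list 0.09 and 0.08. No marker of these 8 lists was listed at 0 in every library, and the part of cell makeup in the differences of the members was not tested.

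Set against the mean log2 level of the 16 endothelial markers of the same library, *Notch4* was higher in every KO library, by 0.71 on the log2 scale. So were *Notch3* by 0.44 and *Notch1* by 0.43 (exact permutation test, two-sided, p = 0.1 for each). *Jag2* was higher by 0.73 with an overlap (p = 0.2, exact permutation test), and *Jag1* had a difference of -0.23, *Notch2* of -0.05, *Hey1* of -0.12 and *Heyl* of -0.11. *Dll4* and *Hes1* had differences of 0.19 and 0.14, with overlap. Against the mural markers, *Notch4* and *Notch3* were free of overlap, higher by 0.67 and 0.40, and *Notch1* was not, with a difference of 0.38. *Jag2* (0.68), *Dll4* (0.15), *Hes1* (0.10), *Notch2* (-0.10), *Jag1* (-0.27), *Hey1* (-0.17) and *Heyl* (-0.16) overlapped too. The endothelial markers had a median GC content of 53.4%, below that of each of the 4 members with the largest differences, and these values were not corrected for GC content. The share of all tested genes without overlap on these scales was not computed. Before such a subtraction it was 18.3% with the KO higher.

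The other genes of the pathway were taken from a list of 78 symbols, of which 75 were in the table and 59 passed the filter. Of these, 35 had a higher and 24 a lower level in KO muscle, 0 passed an adjusted p of 0.05, and 14 were higher and 9 lower at an unadjusted p under 0.05, beside 15.3% and 10.9% of all tested genes. Every KO library lay above every WT library for 17 and below for 11, beside 18.3% and 16.2% of all tested genes. The median log2 fold change was 0.11, which was 0.04 without WT replicate 1, and 0.01 after correction for GC content. By role, 4 of 5 tested glycosyltransferases of the receptors were higher in the KO mice (median 0.47), as were 4 of 6 γ-secretase genes (0.11), 5 of 8 genes of the nuclear complex (0.12), 9 of 15 corepressors (0.08) and 4 of 11 genes of receptor trafficking and turnover (-0.13). After the correction these medians were 0.12, 0.02, -0.01, 0.06 and 0.02.

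*Mfng* and *Mib2* were among the 3 highest of those without overlap. *Mfng*, a glycosyltransferase of the Fringe family that alters how receptors respond to Jagged and Delta-like ligands, had levels of 1.43, 0.426 and 1.04 FPKM in the WT libraries against 1.56, 2.66 and 1.67 FPKM in the KO libraries (log2 fold change 1.05, SE 0.41, adjusted p = 0.167). *Mib2*, a ubiquitin ligase for Notch ligands, had levels of 1.88, 2.31 and 2.48 FPKM in the WT libraries against 3.89, 4.87 and 3.24 FPKM in the KO libraries (0.81, SE 0.19, adjusted p = 0.0758). After the correction *Mfng* (0.62) and *Mib2* (0.18) overlapped between the genotypes.

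The 3 lowest without overlap were *Tle4*, *Hdac2* and *Fbxw7*. *Tle4*, a corepressor of the Groucho family that HES proteins bind, had levels of 11, 7.95 and 7.5 FPKM in the WT libraries against 6.81, 5.18 and 6.49 FPKM in the KO libraries, which gave a log2 fold change of -0.50 (SE 0.18, adjusted p = 0.149). It kept its separation after correction for GC content, with -0.37. The histone deacetylase gene *Hdac2* had a log2 fold change of -0.41 (SE 0.16, adjusted p = 0.164), and *Fbxw7*, which encodes the ubiquitin ligase subunit that marks the Notch intracellular domain for degradation, had one of -0.40 (SE 0.15, adjusted p = 0.161). After the correction these were -0.11 and -0.20, with overlap.

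The steps that cut the receptor split by gene, named here after their values were seen. *Adam10* (log2 fold change -0.33, adjusted p = 0.140) and *Adam17* (-0.29, adjusted p = 0.181) were lower in every KO library, as was *Rbpj* (-0.32, adjusted p = 0.183), which had levels of 5.80, 5.63 and 5.37 FPKM in the WT libraries against 5.05, 3.87 and 4.55 FPKM in the KO libraries. *Furin*, whose product cleaves the receptor on its way to the surface, was higher in every KO library (0.66, adjusted p = 0.105), and so were the γ-secretase genes *Psen2* (0.73, adjusted p = 0.0750) and *Aph1a* (0.38, adjusted p = 0.0879). The GC content was 44.2% for *Adam10*, 45.4% for *Adam17* and 43.4% for *Rbpj*, and 57.7% for *Furin*, 54.9% for *Psen2* and 53.7% for *Aph1a*. After the correction *Adam10*, *Adam17*, *Rbpj* and *Furin* overlapped between the genotypes, at -0.08, -0.09, -0.05 and 0.16, and *Psen2* and *Aph1a* did not, at 0.41 and 0.15.

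Of the canonical ligand and target genes outside the 10 members, few passed the filter. *Dll1* overlapped between the genotypes, at 0.831 to 2.01 FPKM in the WT and 0.956 to 2.42 FPKM in the KO libraries, and *Dll3* was listed at 0 in each library. The RBPJ target *Nrarp* had a log2 fold change of -0.05 (SE 0.31, adjusted p = 0.930), and *Hey2* stayed at 0.0967 to 0.194 FPKM, under the filter.

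**Figure D5:**
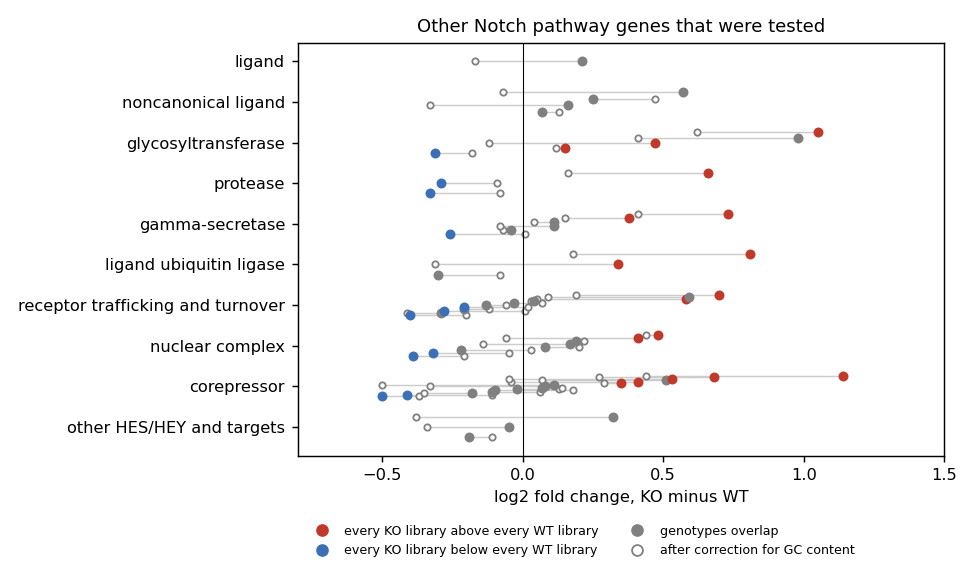
Log2 fold change of KO against WT for the 59 tested genes of the Notch pathway outside the 10 members, by role, with filled points for the deposited values and open points joined to them after correction for GC content. Of the filled points, 17 are red (every KO library above every WT library) and 11 are blue (every KO library below), and the open points have a median of 0.01.

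By Pearson's r of log2(FPKM + 0.1) over the 6 libraries, the tested genes most like *Notch4* were *Mustn1* (r = 0.997), *Psen2* (0.995) and *Dok5* (0.990). Those most like *Notch1* were *Acta2*, *Itgb4* and *Igfbp6* (each r = 0.994), and *Acta2* encodes smooth muscle actin. These are a description over 6 libraries that also differ in genotype and GC slope. On the opposite strand to *Notch1*, 0610009E02Rik shares 1068 exonic bases with it and was at 0.114 to 0.448 FPKM, lowest in KO replicate 7, where *Notch1* was highest. *Gm17276*, which shares 488 bases with *Notch3*, stayed at 0.0393 FPKM or less. *Gm14207*, which shares 214 bases with *Dll4*, was at 0 to 0.669 FPKM and was highest in KO replicate 1, the library in which *Dll4* was highest. Whether fragments were assigned by strand is not given in the sources used here.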

How the data were processed

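Libraries of a stranded mRNA kit, 1 for each of 3 WT and 3 KO mice, were sequenced from GAS muscle, and samples were grouped by their titles. Per the labels and the study's methods, the authors used TopHat for alignment to GRCm38 and Cufflinks for levels, and deposited FPKM for 37979 genes in each library, with tool versions and annotation release not given in the sources used here. Pairs of libraries shared at most 1 value among the 14983 genes above 0 throughout, so each counted as a replicate.

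FPKM were transformed to log2(FPKM + 0.1), genes whose mean was under 0.5 FPKM were left out, and limma (3.58.1, R 4.3.3) with a variance trend was fitted. The fit was tested on simulated data. GC content and coordinates came from GENCODE vM21 (GRCm38), with GC known for 97.2% of the tested genes, and the correction subtracted a loess curve of span 0.3 from each library. Depth was estimated from genes with 1 transcript of 1500 to 6000 bases, whose low values were whole fragments within 0.15 for 91.1% to 95.1%. Fragments per member assume the longest annotated transcript. Single values had exact permutation tests, two-sided. Figures used matplotlib 3.10.9.

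Members and gene lists were chosen with earlier results of these data known. All members are named, and of the other pathway genes the 3 highest and 3 lowest log2 fold changes without overlap between the genotypes. Not every gene that this rule names is reported here. Genes alike to *Notch1* and *Notch4* are the 3 with the highest r. The alternatives covered pseudocount, filter, scaling, variance model, pairing, GC content, length, zeros, single libraries and, added after the values were seen, the count of members without overlap.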

Additional observations from a re-analysis of the deposited data

How the results depend on the processing

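The count of members past an adjusted p of 0.05 was 0 in each alternative except limma's array weights, which called 4 members (*Notch1*, *Notch4*, *Jag2* and *Hes1*), 17 other pathway genes and 3147 of all genes, where the fit without weights called 40. The number of called genes was 11 with a pseudocount of 1, 22 with a minimum of 0.1 FPKM, 20 without a filter, 18 with upper quartile scaling, 18 with quantile normalization, 19 without a variance trend, 19 after the length correction, 14 after the GC correction and 1 without genes listed at 0 in any library. Leaving out single libraries gave 11 to 38. Under the GC correction the median of the members was 0.08, that of the other pathway genes 0.01, the number of members higher in the KO mice 6 and the number without overlap 0. The medians and the 6 cannot change when a replicate block is added, since each replicate number holds 1 KO and 1 WT library.

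Deviations from the genotype means had correlations between -0.080 and 0.034 for same-numbered libraries, and between -0.066 and 0.086 for the others. With 3 libraries of each genotype, such correlations cannot decide whether the replicate numbers mark a pairing. The replicate block gave 13 called genes, and 12 with the GC correction, with 0 members among them.

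Directions turned for members of small difference. With the GC correction the log2 fold change was -0.08 for *Notch2*, -0.01 for *Hes1*, -0.05 for *Hey1* and -0.19 for *Heyl*. With array weights it was -0.02 for *Notch2* and -0.02 for *Heyl*. *Jag1* was at -0.06 with quantile normalization and at -0.03 after the length correction, and ranged from -0.11 to 0.20 with each library left out, as *Heyl* did from -0.05 to 0.30. Against the endothelial and mural lists, *Notch2* was at -0.05 and -0.10, *Jag1* at -0.23 and -0.27, *Hey1* at -0.12 and -0.17 and *Heyl* at -0.11 and -0.16. *Notch1*, *Notch3*, *Notch4*, *Jag2* and *Dll4* stayed above 0 in each alternative that was run. *Notch1* and *Notch4* have means under 1 FPKM and give no value with that minimum. The cause of these changes was not tested.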
